A study of Mus musculus with 7 samples.

Results

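The Cyp4 genes encode cytochrome P450 enzymes that begin omega-oxidation of fatty acids, and Aldh3a2 encodes the fatty aldehyde dehydrogenase that acts later in the same route. The genes described here are the rows of the deposited table whose symbol is Cyp4a10, Cyp4a14, Cyp4b1, Cyp4f13, Cyp4f14, Cyp4f16, Cyp4v3 or Aldh3a2. The table held 7 of these 8 symbols among its 14795 genes, and Cyp4a14 had no row. All 7 passed the filter on low values, a CPM above 1 in at least 3 libraries, as did 13399 genes of the whole table.

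Duodenal RNA was sequenced from male mice, C57BL/6 by the labels and predominantly C57BL6/J by the methods, on a high-fat diet, 3 Ppara lox/lox controls and 4 Ppara I-KO mice. Both groups carried loxP-flanked Ppara alleles, and the I-KO mice also carried Villin-Cre, a transgene that expresses the recombinase in the intestinal epithelium, so cells outside the epithelium keep the gene. The controls were lox/lox littermates, and the diet and the sex come from the methods of the study, since the sample labels give neither. By the labels, food was taken away for 6 h and given back for 6 h before sacrifice, whereas the methods give a shorter fast unless stated otherwise, and the age of these mice was not given in the sources used here.

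In omega-oxidation, a microsomal P450 hydroxylates the methyl end of a fatty acid with electrons from the P450 reductase. Alcohol and aldehyde dehydrogenases turn the omega-hydroxy acid into a dicarboxylic acid, which is shortened by peroxisomal β-oxidation. PPARα is a nuclear receptor for fatty acids, and Cyp4a10 and Cyp4a14 are among its classical target genes in rodent liver. Enzymes of the Cyp4f group also hydroxylate eicosanoids and vitamin E, and loss of the human ALDH3A2 enzyme causes Sjögren-Larsson syndrome.

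The deposited values are normalized counts as CPM, the counts of a gene scaled by the authors to the size of the library. They are relative levels within each library. The step between neighbouring low values gave the worth of 1 read, and from it between 20741442 and 25885271 reads per library fell on the listed genes. The targeted gene, Ppara, measured 53.42, 49.29 and 63.18 CPM across the controls, replicates 1 to 3, and 33.05, 40.58, 47.51 and 69.90 CPM across I-KO replicates 1 to 4. The library labelled I-KO replicate 4 thus lay above every lox/lox library, and the genotypes differed by -0.25 on the log2 scale (standard error, SE, 0.22, adjusted p = 0.954 by limma). Exons that Cre leaves in place, and Cre-negative cells, can also contribute to this value, and their part in it was not tested. The gene-level total is therefore no check of the knockout. The enterocyte markers summed to between 48297 and 57071 CPM in lox/lox and between 46628 and 64456 CPM in I-KO, with all 7 markers in the table. Of these markers Fabp1, a fatty acid binding protein and known PPARα target, was lower in I-KO (log2 fold change -0.57, unadjusted p = 0.00621, adjusted p = 0.822 by limma). Fabp2 also had a lower fitted level, and the other 5 had a higher one. Of these, Vil1, which encodes villin and is named here after its values were seen, lay without overlap at 2735 to 2884 CPM among controls and 2947 to 3383 CPM among I-KO mice (unadjusted p = 0.11, adjusted p = 0.954). The summed level of 9 pancreatic acinar markers was 365 CPM in I-KO replicate 1 and 84.0 CPM in lox/lox replicate 2, against 24.6 to 39.1 CPM in the other libraries.

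Of the hydroxylases, Cyp4a10 was 9.31-fold lower in Ppara I-KO duodena (0.330 against 3.07 CPM), and of the others the libraries of both genotypes overlapped. Aldh3a2 was lower in each of the 4 I-KO mice than in every control. By limma on log2(value + 1), with Benjamini-Hochberg adjustment over all genes tested, 0 of the 7 had an adjusted p under 0.05, against 0.0299% of all genes. At an unadjusted p of 0.05, 2 of the 7 were lower, Cyp4a10 and Aldh3a2, against 2.42% of all genes, and 0 were higher, against 2.32%. Cyp4a10 was above the filter's minimum in the lox/lox libraries alone, so its lower value was built into its being tested and its place in these counts supports nothing. The groups did not overlap, with I-KO lower, for the same 2 genes and for 3.28% of all genes, and 0 of the 7 lay without overlap on the higher side, where 2.91% of all genes did. In all, 4 of the genes had a higher and 3 a lower fitted level in I-KO, and the median log2 fold change was 0.11, beside 0.0017 over all genes tested. In whole duodenum, fewer cells of a type and less RNA per cell cannot be told apart.

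**Figure D1:**
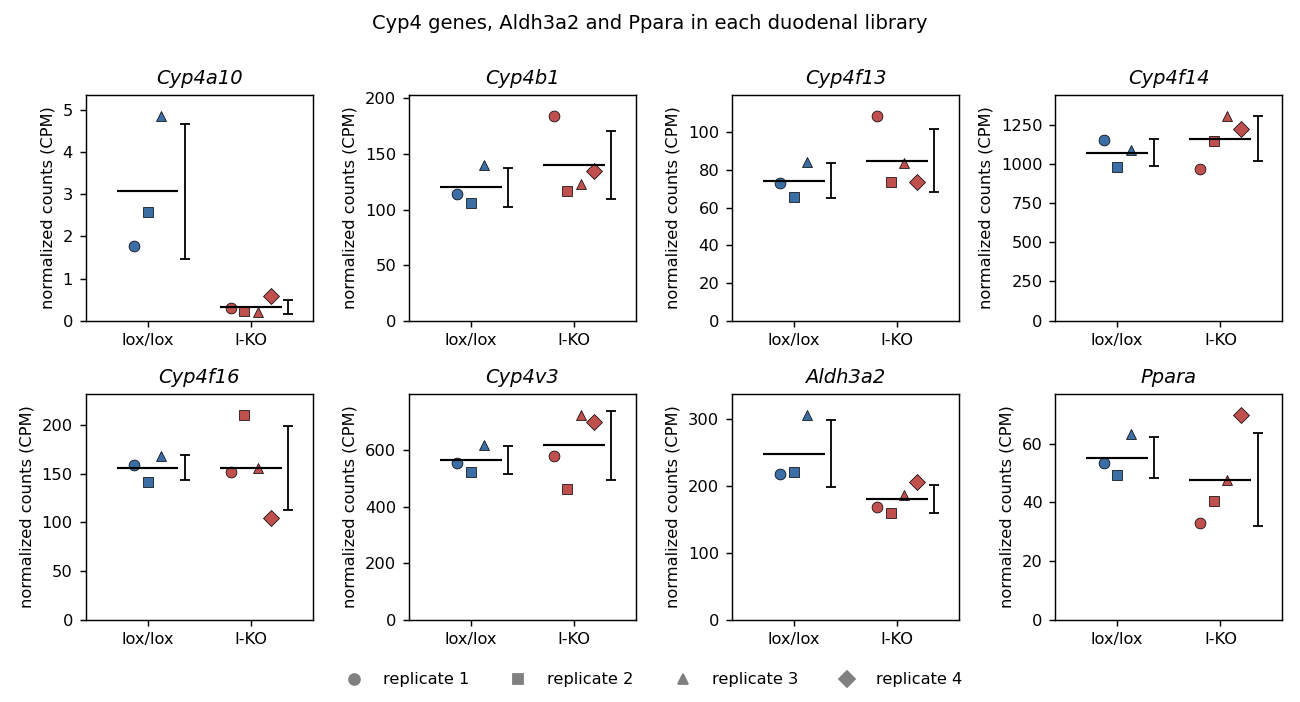
Normalized counts (CPM, linear axis from 0) of the 6 measured Cyp4 genes, Aldh3a2 and Ppara in each library, with the group mean as a horizontal line and the SD as an error bar beside it, for 3 lox/lox and 4 I-KO mice. Cyp4a10 was at most 0.58 CPM in the I-KO libraries and at least 1.78 CPM in the lox/lox libraries, and Aldh3a2 was the other member whose groups did not overlap.

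Cyp4a10, a fatty acid omega-hydroxylase, lies on chromosome 4 of GRCm38 (mm10) from 115518264 to 115533649 on the plus strand, 22.1 kb from Cyp4a14 and 91.1 kb from Cyp4b1. Its level was 1.78, 2.57 and 4.87 CPM across lox/lox replicates 1 to 3. Across I-KO replicates 1 to 4 the level was 0.29, 0.24, 0.21 and 0.58 CPM. The highest I-KO library was therefore below the lowest lox/lox library, and the lox/lox libraries themselves spread widely. In reads, these values correspond to 36, 60 and 124 in lox/lox and to 6, 6, 4 and 14 in I-KO.

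Cyp4a10 averaged 3.07 ± 1.61 CPM (SD, n = 3) among controls and 0.330 ± 0.170 CPM (SD, n = 4) among I-KO mice, a 9.31-fold difference. On the log2(value + 1) scale, which understates the change of so low a gene, the log2 fold change was -1.55 (SE 0.22, 95% interval -2.06 to -1.04). The unadjusted p was 7.34e-05 and the adjusted p 0.116 by limma, which placed the gene at rank 8 of 13399 by p and rank 3 from the lowest by fold change. The exact two-sided permutation test gave p = 0.0286, the smallest that the 35 assignments of these libraries allow. Cyp4a10 passed the filter through its lox/lox libraries alone, so its ranks and p-values among filtered genes support nothing by themselves. Without the filter the unadjusted p was 6.59e-05 and the adjusted p 0.122 by limma. Of the genes of the table, 3, with Cyp4a10, were above 1 CPM in all lox/lox and in no I-KO library, and 8 were above 1 CPM in all I-KO and in no lox/lox library. Apart from Cyp4a10, those of the first kind had lox/lox means of 1.48 and 1.27 CPM.

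The call for Cyp4a10 depended on the fit. Without lox/lox replicate 1 the adjusted p was 0.0446, and with sample quality weights it was 0.0487, both past the threshold, and over all alternatives it lay between 0.0446 and 0.433. Without the library labelled I-KO replicate 4, which had the highest Ppara value, the log2 fold change was -1.64 and the adjusted p 0.183. Of the 100-base stretches of Cyp4a10 transcripts, 12.2% also occur in Cyp4a31 or Cyp4a32, its neighbours, neither of which has a row in the table. How reads from these shared stretches were assigned was not tested.

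Cyp4b1, a P450 that acts on fatty acids and on foreign compounds, lies on the same chromosome from 115624725 to 115647723 on the minus strand. It had 113.99, 105.87 and 140.02 CPM in lox/lox and 184.59, 116.86, 123.41 and 134.51 CPM in I-KO replicates 1 to 4. The groups overlapped, and only I-KO replicate 1 lay above all controls. The log2 fold change was 0.21 (SE 0.17, 95% interval -0.17 to 0.58, adjusted p = 0.954 by limma). Without I-KO replicate 1, the library with the highest acinar markers, it was 0.07, and without lox/lox replicate 3 it was 0.32. The part of acinar cells in the value was not tested. Of the 100-base stretches of Cyp4b1, 3.40% also occur in Cyp4b1-ps1 or Cyp4b1-ps2, neither of which has a row in the table.

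The Cyp4f members lie on chromosome 17. Cyp4f14, a hydroxylase of leukotriene B4 and vitamin E, extends from 32905070 to 32917342 on the minus strand, and Cyp4f13 begins 7.35 kb beyond it, from 32924688 to 32947402. Cyp4f16 lies 353 kb away on the plus strand, from 32536558 to 32551798. Cyp4f14 had 1149.89, 976.66 and 1085.78 CPM in lox/lox and 968.43, 1146.81, 1307.66 and 1220.15 CPM in I-KO. The groups overlapped at both ends, and the log2 fold change was 0.11 (SE 0.12, 95% interval -0.15 to 0.37, adjusted p = 0.954 by limma). With each library left out it lay between 0.05 (without lox/lox replicate 2) and 0.20 (without I-KO replicate 1).

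Cyp4f13, another member of the leukotriene hydroxylase group, had 73.16, 65.76 and 84.08 CPM in lox/lox and 108.96, 73.50, 83.85 and 73.83 CPM in I-KO. As with Cyp4b1, I-KO replicate 1 alone lay above the controls. The log2 fold change was 0.18 (SE 0.15, adjusted p = 0.954 by limma) but 0.06 without that library and 0.27 without lox/lox replicate 3. Cyp4f16 had 159.07, 141.86 and 167.64 CPM in lox/lox and 151.68, 210.43, 155.72 and 104.54 CPM in I-KO. The 4 I-KO libraries included both the highest and the lowest value, so that the SD was 27.8% of the mean in I-KO and 8.41% in lox/lox. The log2 fold change was -0.04 (SE 0.20, 95% interval -0.50 to 0.41, adjusted p = 0.991 by limma), and its sign changed with the fit. Of the 100-base stretches of Cyp4f16, 5.95% also occur in Cyp4f17 or Cyp4f37, and Cyp4f17 has a row in the table.

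Cyp4v3, the mouse counterpart of the gene mutated in Bietti crystalline dystrophy, a fatty acid omega-hydroxylase, lies on chromosome 8 from 45304944 to 45333216 on the minus strand. It had 555.49, 522.95 and 617.23 CPM in lox/lox and 580.68, 462.31, 725.44 and 699.01 CPM in I-KO. I-KO replicates 3 and 4 were above, and I-KO replicate 2 below, all controls. The log2 fold change was 0.11 (SE 0.16, 95% interval -0.25 to 0.46, adjusted p = 0.971 by limma), and with each library left out it lay between 0.02 when I-KO replicate 3 and 0.24 when I-KO replicate 2 was omitted. Its exons overlap those of Gm45753 on the same strand, which shares 5.77% of its 100-base stretches.

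Aldh3a2, which oxidizes long-chain fatty aldehydes to fatty acids, lies on chromosome 11 from 61223417 to 61267464 on the minus strand. Its level was 217.42, 220.53 and 306.18 CPM across lox/lox replicates 1 to 3. Across I-KO replicates 1 to 4 the level was 168.88, 159.17, 186.45 and 205.94 CPM. Lox/lox replicate 3 stood highest and I-KO replicate 4 came closest to the controls, but the groups did not overlap.

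Aldh3a2 averaged 248 ± 50.4 CPM (SD, n = 3) among controls and 180 ± 20.6 CPM (SD, n = 4) among I-KO mice, 72.6% of the control mean. The log2 fold change was -0.45 (SE 0.14, 95% interval -0.77 to -0.13), with an unadjusted p of 0.0119 and an adjusted p of 0.887 by limma, and the exact two-sided permutation test gave p = 0.0286, again the smallest possible. Without lox/lox replicate 3 the log2 fold change was -0.29, and without the library labelled I-KO replicate 4 it was -0.51. None of its 100-base stretches occurs in another gene.

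**Figure D2:**
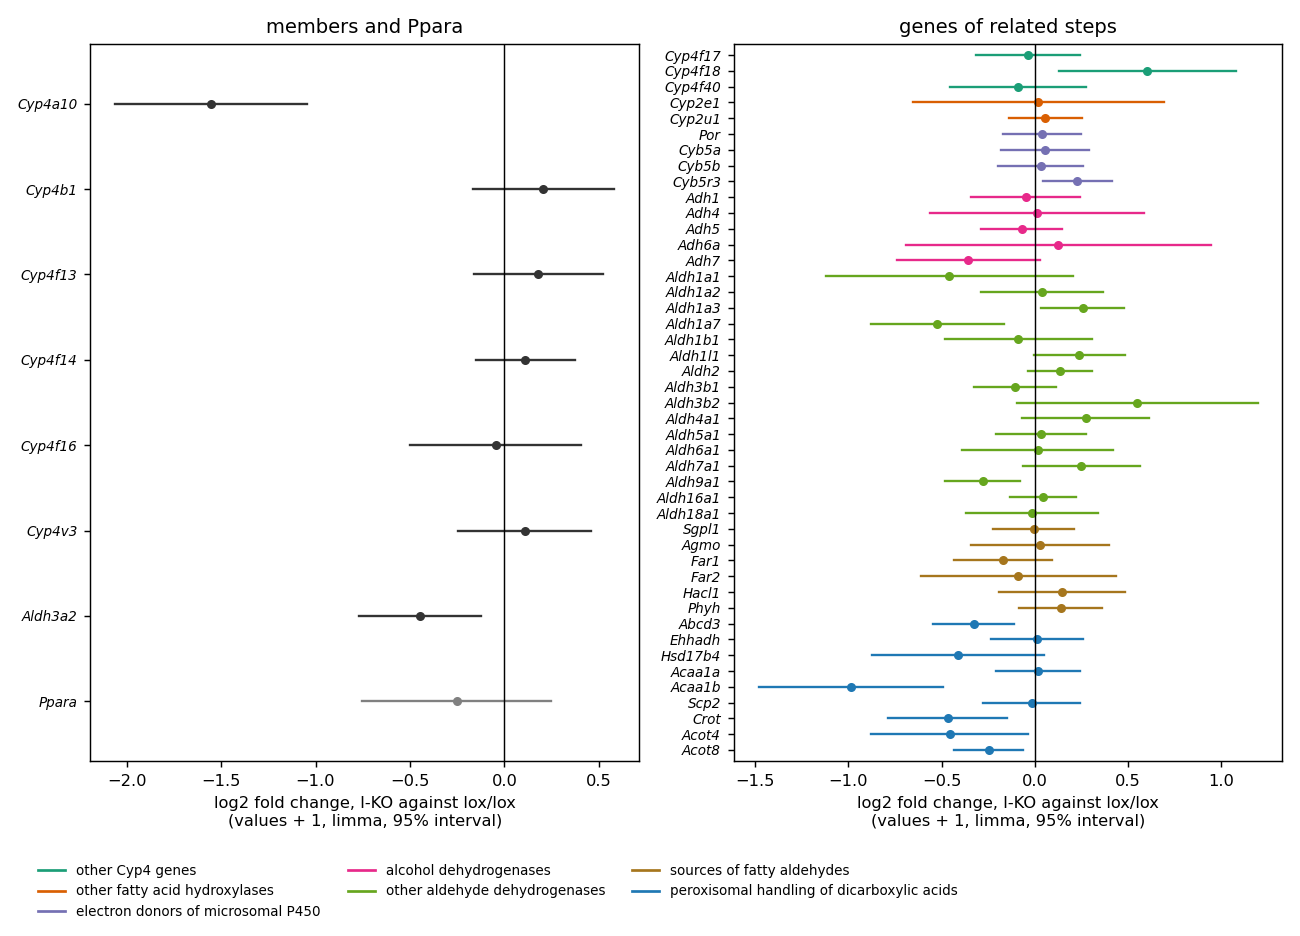
Log2 fold change of I-KO against lox/lox (horizontal axis, limma on log2(value + 1), 3 against 4 libraries) with 95% intervals, for the members and Ppara on the left and for genes of related steps on the right, coloured by list. The intervals of Cyp4a10 (-2.06 to -1.04) and Aldh3a2 (-0.77 to -0.13) exclude 0 before adjustment, and Acaa1b is the lowest of the related genes at -0.99.

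The members differed widely in level when compared per length, as CPM per kb of annotated exon. In lox/lox, Cyp4f14 had 443 ± 36.2 and Cyp4v3 148 ± 12.6 CPM per kb (SD, n = 3), and their libraries did not overlap with each other or with those of any other member. Cyp4f16 (69.7 ± 5.86), Cyp4b1 (63.4 ± 9.43), Aldh3a2 (46.7 ± 9.47) and Cyp4f13 (42.4 ± 5.26 CPM per kb) followed. The ranges of neighbours in this order overlapped. Within each lox/lox library, however, Cyp4f16 lay above Cyp4b1 and Cyp4b1 above Aldh3a2. Aldh3a2 lay below Cyp4f13 in lox/lox replicate 1 only. Cyp4a10 was the lowest member, with 1.46 ± 0.761 CPM per kb in lox/lox and 0.156 ± 0.0806 CPM per kb in I-KO.

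Summed over the 11 Cyp4 genes of the table, the level was 787 ± 61 CPM per kb (SD, n = 3) in lox/lox and 854 ± 59.2 CPM per kb (SD, n = 4) in I-KO. Cyp4f14 accounted for 56.3% of this sum in lox/lox and 56.0% in I-KO, and Cyp4v3 for 18.9% in both. Cyp4a10 accounted for 0.184% in lox/lox and 0.0184% in I-KO. Cyp4a10 thus made up little of the sum in either genotype, while the groups of Cyp4f14 and Cyp4v3, which made up most of it, overlapped.

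**Figure D3:**
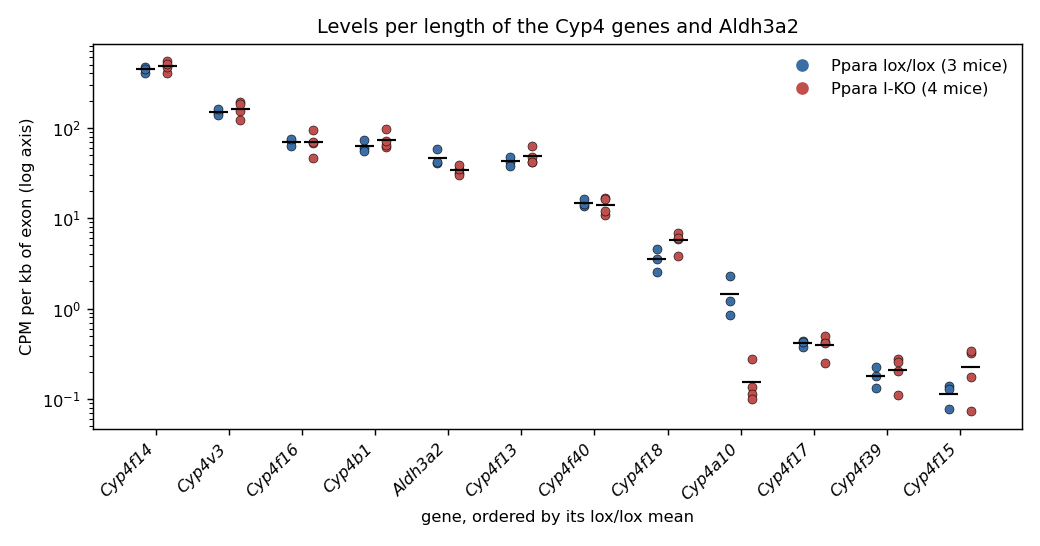
Level per length (CPM per kb of exon, log axis) of the 11 Cyp4 genes of the table and Aldh3a2 in each of 3 lox/lox and 4 I-KO libraries, with the group mean as a line and the genes ordered by their lox/lox mean. Cyp4f14 lies highest at 443 and Cyp4a10 drops from a mean of 1.46 to 0.156 CPM per kb.

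The promoters are of interest because PPARα binds, with RXR, a direct repeat of AGGTCA with 1 base between the repeats. RefSeq (GRCm38.p6) promoter windows of 300 bases, from 250 before to 50 after the start, were at hand for 6 of the 8 genes, without Cyp4a10 and Cyp4a14. Searched on both strands with up to 2 mismatches in the fixed letters, the repeat was found in 3.86% of 32851 promoters, and without mismatch in 0.0396%. Among these members it was found only in Cyp4f16, with 2 mismatches, on the opposite strand with its first base at position -181 from the start. The stretch before the start of Cyp4f16, at chr17:32536307-32536556 on the plus strand, is given with that match in capitals. For Aldh3a2, the member of the 6 whose groups did not overlap, the stretch at chr11:61267187-61267238 on the minus strand is given. No annotated exon covers the Aldh3a2 stretch. It lies before the RefSeq start but inside the gene as GENCODE places it, with its start at 61267464.
Cyp4f16: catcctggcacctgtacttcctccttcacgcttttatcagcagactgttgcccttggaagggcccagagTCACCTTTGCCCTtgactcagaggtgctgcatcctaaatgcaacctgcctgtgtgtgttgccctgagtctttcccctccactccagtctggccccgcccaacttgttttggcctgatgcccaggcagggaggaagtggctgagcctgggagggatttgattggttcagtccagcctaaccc
Aldh3a2: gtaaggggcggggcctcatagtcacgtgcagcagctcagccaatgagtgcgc
The match is a description of letters, and the member that holds it had overlapping groups.

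Of 13 other Cyp4 genes listed, 5 had a row and 3 passed the filter. Cyp4f18, a leukotriene hydroxylase of myeloid cells, had 4.30, 6.01 and 7.86 CPM in lox/lox and 11.73, 10.02, 6.57 and 10.42 CPM in I-KO. The groups overlapped through I-KO replicate 3, and the log2 fold change was 0.60 (unadjusted p = 0.0183, adjusted p = 0.954 by limma). The myeloid markers, of which 3 of 4 had a row, summed to between 161 and 234 CPM in lox/lox and between 207 and 261 CPM in I-KO, and their part in the Cyp4f18 value was not tested. Cyp4f40 was the highest of these genes, between 31.10 and 37.17 CPM in lox/lox and between 24.91 and 38.61 CPM in I-KO.

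Of the other steps, 0 genes passed the adjusted threshold by limma in any list. The fatty acid hydroxylases outside the family, Cyp2u1 and Cyp2e1, were below 4 CPM in every library and neither had an unadjusted p under 0.05. Among 4 genes listed as electron donors of P450 enzymes, Cyb5r3, the cytochrome b5 reductase, was higher in I-KO without overlap. It had 457 to 500 CPM in lox/lox and 540 to 606 CPM in I-KO (log2 fold change 0.23, unadjusted p = 0.0214, adjusted p = 0.954). Cyb5b had the highest mean CPM of this list, with 921 to 1012 CPM in lox/lox and 881 to 1129 CPM in I-KO. It encodes a cytochrome b5 of the outer mitochondrial membrane, not of microsomes.

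Of 5 alcohol dehydrogenases tested, 0 had an unadjusted p under 0.05. The highest mean CPM belonged to Adh6a, with 399 to 1099 CPM in lox/lox and 456.5 to 1043 CPM in I-KO, and Adh1, with 662 to 710 CPM in lox/lox and 587 to 832 CPM in I-KO. Of 16 other aldehyde dehydrogenases tested, 2 were lower and 1 was higher at an unadjusted p of 0.05 by limma, against 2.42% and 2.32% of all genes. The groups did not overlap for 2 on the lower side, Aldh9a1 and Aldh1a7, and for 2 on the higher side, Aldh1a3 and Aldh2, against 3.28% and 2.91% of all genes. Aldh9a1, which oxidizes aminoaldehydes and the trimethylaminobutyraldehyde of carnitine synthesis, had 304 to 330 CPM in lox/lox and 236 to 282 CPM in I-KO, without overlap (log2 fold change -0.28, unadjusted p = 0.0121, adjusted p = 0.887). Aldh1a7, a cytosolic relative of the retinal dehydrogenase Aldh1a1, had a log2 fold change of -0.52 (unadjusted p = 0.00902, adjusted p = 0.830), and Aldh1a3, a retinal dehydrogenase, one of 0.26 (unadjusted p = 0.0301, adjusted p = 0.954). Aldh2, the mitochondrial acetaldehyde dehydrogenase, named for its lack of overlap, had 217 to 230 CPM among controls and 238 to 257 CPM among I-KO mice (log2 fold change 0.13, unadjusted p = 0.107, adjusted p = 0.954).

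Aldh1b1, a mitochondrial enzyme, had a mean of 285 CPM over all libraries, and its unadjusted p was not under 0.05. Of 6 genes whose enzymes release or make fatty aldehydes, 0 had an unadjusted p under 0.05. Highest in CPM were Sgpl1, the sphingosine-1-phosphate lyase that yields a fatty aldehyde, at 423 to 515 CPM in lox/lox and 420 to 487 CPM in I-KO, and Phyh, which begins α-oxidation, at 345 to 360 CPM in lox/lox and 338 to 434 CPM in I-KO.

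In I-KO, 8 of 10 genes listed for peroxisomal handling of dicarboxylic acids, with an acyltransferase and thioesterases among them, had a lower fitted level. The other 2, Ehhadh and Acaa1a, named here for their direction, had log2 fold changes of 0.012 and 0.016 (unadjusted p = 0.915 and 0.878 by limma). The median log2 fold change of the list was -0.29, beside 0.0017 over all genes tested. At an unadjusted p of 0.05 by limma, 5 were lower and 0 higher, against 2.42% and 2.32% of all genes, and the smallest adjusted p was 0.581. Acaa1b, a peroxisomal thiolase, had 41.52, 47.66 and 83.29 CPM in lox/lox and 28.93, 23.88, 24.74 and 32.04 CPM in I-KO, without overlap (log2 fold change -0.99). Abcd3, a peroxisomal transporter of dicarboxylic acids, had 472 to 572 CPM in lox/lox and 381 to 437 CPM in I-KO (log2 fold change -0.33, unadjusted p = 0.00804, adjusted p = 0.830).

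Crot, the peroxisomal carnitine octanoyltransferase, had a log2 fold change of -0.47 (unadjusted p = 0.00889), and the thioesterases Acot4 and Acot8 had -0.46 (unadjusted p = 0.0365) and -0.25 (unadjusted p = 0.0144), all with an adjusted p of at least 0.830 by limma. Scp2, a thiolase and sterol carrier with a high CPM, overlapped between the groups, with 738 to 931 CPM among controls and 692 to 872 CPM among I-KO mice. Several genes of this list are known PPARα targets, and the list was drawn up with earlier results of these data known, so its direction is no independent evidence.

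The pattern of Cyp4a10 over the 7 libraries was most like that of Cpt1a, Gm11696, Acaa1b, Gnpat and Hsdl2, with Pearson's r of log2(value + 1) between 0.967 and 0.981. These are descriptions over 7 libraries that fall into 2 genotypes, so the difference between the groups enters the likeness. How much of the likeness it makes up was not tested. Cpt1a, which encodes the carnitine palmitoyltransferase of the outer mitochondrial membrane, had 96.37, 103.64 and 121.52 CPM in lox/lox and 57.67, 63.13, 63.98 and 72.84 CPM in I-KO. Its groups did not overlap, and within each of them lox/lox replicate 3 and I-KO replicate 4 stood highest, as for Cyp4a10 and Aldh3a2. The log2 fold change of Cpt1a was -0.72 (adjusted p = 0.134 by limma), and those of Hsdl2 and Gnpat were -0.69 and -0.11.

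**Figure D4:**
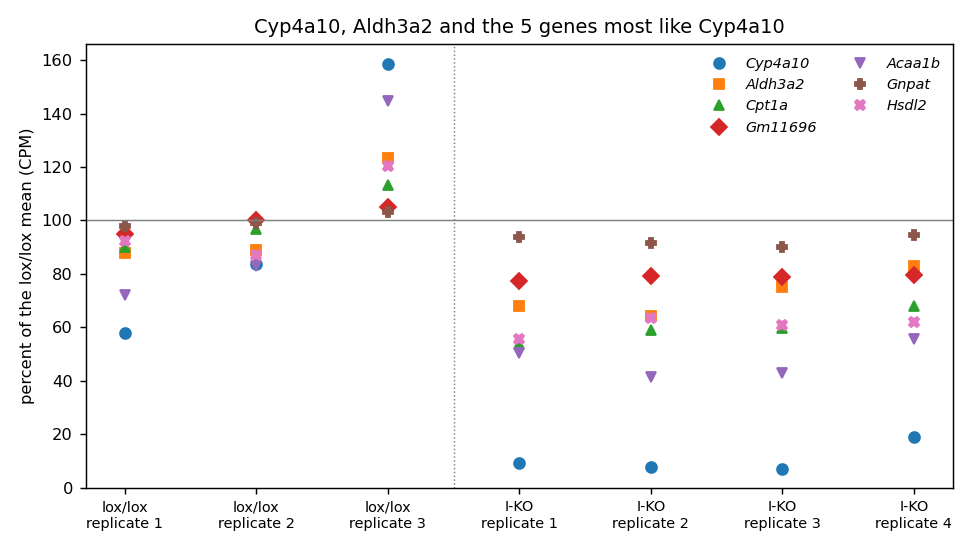
Level of Cyp4a10, Aldh3a2 and the 5 genes most like Cyp4a10 in each library, as a percentage of the mean of the 3 lox/lox libraries (vertical axis from 0, the grey line marks 100%). Cyp4a10 has the widest range, Aldh3a2 averages 72.6% of the control mean in I-KO, and lox/lox replicate 3 is the highest library for all 7 genes.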

How the data were processed

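RNA from 7 duodena, given separate biological replicate numbers in the labels, was sequenced as 100-base single reads from stranded mRNA libraries. The authors deposited 1 table of signal values, counts normalized to CPM with 2 decimals. Per the labels, TopHat2 2.0.13, HTSeq 0.6.1, Picard 1.80, FastQC 0.11.2, edgeR and the mm10 genome were used, and the strand setting of the counting was not given in the sources used here. 1 empty line that named no gene was left out. Read numbers come from the step between low values. In every library 100% of low values matched a whole number of steps within the rounding of 2 decimals. By a stricter limit, which that rounding can exceed, fewer than 95% fell close to a whole number in 5 libraries. By that stricter limit, no test between the genotypes was run on counts.

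Log2(value + 1) of genes above 1 CPM in at least 3 libraries, the study's filter, was compared between the genotypes by limma 3.58.1 (R 4.3.3), with no other covariate, and p-values were two-sided and adjusted by the Benjamini-Hochberg method over 13399 genes. The fit was tested on simulated data. The study used a negative binomial model, which needs counts. The permutation tests compared the absolute difference of mean CPM. Replicates of a group differed beyond counting noise (chi-square over degrees of freedom from 13.9 upwards), so each was kept as 1 sample. Positions, exon lengths and shared 100-base stretches come from GENCODE M21 (GRCm38). Cyb5a, Aldh3b3 and Jchain were matched to the older symbols Cyb5, 1700055N04Rik and Igj. Named are Ppara, the members, genes of the pathway lists with p under 0.05, the 2 genes of each pathway list with the highest mean, and the 5 genes most like Cyp4a10, the member with the largest statistic; the members and lists were chosen with earlier results of these data known. 1 gene of the peroxisomal list, counted in its totals, is not reported here by name. As alternatives, the values were rescaled by median-of-ratios factors or by column totals, the filter was removed, the pseudocount was 0.5, and the fit had an intensity trend and was robust, weighted the libraries by quality, had a replicate block, or left each library out.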

Additional observations from a re-analysis of the deposited data

How the results depend on the processing

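Of 98 values, the log2 fold changes of 7 genes under 14 alternatives, 92 kept their direction and their side of the threshold by limma. Cyp4a10 passed it under 2 alternatives, so that 1 member was called with sample quality weights (adjusted p = 0.0487) and between 0 and 1 with each library left out (1 without lox/lox replicate 1, adjusted p = 0.0446), and its log2 fold change ranged from -2.03 to -1.25. Cyp4f16 changed sign in 4, with 0.15 under sample quality weights and between -0.20 and 0.13 with each library left out (0.0075 when lox/lox replicate 3 was omitted and 0.13 when I-KO replicate 4 was). Over all genes 4 were called, against 9 under the intensity trend with robust fitting and 12 when libraries were weighted by quality. The cause of these changes was not tested. With a replicate block the log2 fold change of Cyp4f16 was 0.13, the adjusted p of Cyp4a10 was 0.259, 3 genes were called over all and 0 members. Whether same-numbered libraries share more than a number was not settled, and I-KO replicate 4 has no partner. Deviations from the group means correlated at -0.014, 0.18 and -0.0092 between same-numbered libraries. Between libraries of unlike number these correlations ranged from -0.35 to 0.28. With so few libraries they cannot show whether a pairing exists. Depth limits the precision of Cyp4a10, with 4 to 14 reads per I-KO library.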

Other observations

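Cyp4f15 and Cyp4f39, omega-hydroxylase relatives that did not pass the filter, were below 1 CPM in every library. Cyp4f15 had 0.17 to 0.30 CPM in lox/lox libraries and between 0.16 and 0.74 CPM in I-KO, and Cyp4f39 had 0.35 to 0.59 CPM in lox/lox libraries and between 0.29 and 0.72 CPM in I-KO. Both overlapped between the genotypes. The I-KO level of Cyp4a10 lay in the same range of CPM, but its lox/lox level was higher, at 1.78 to 4.87 CPM. These 2 genes therefore say nothing about the difference in Cyp4a10. Among the hepatocyte markers only Alb had a row, at 0.20 to 0.39 CPM among controls, 0.08 to 0.62 CPM among I-KO mice. The other marker sums also overlapped: smooth muscle had 895 to 1102 CPM among controls, 928 to 1301 CPM among I-KO mice, T cells 140 to 147 and 102 to 203 CPM, B and plasma cells 3052 to 4358 and 2488 to 4154 CPM, adipocytes 18.9 to 34.0 and 19.6 to 28.2 CPM. Of 4 stomach and Brunner gland markers 1 had a row, with at most 0.13 CPM among controls, 1.2 CPM among I-KO mice.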
